A study of Rattus norvegicus with 18 samples.

Results

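Early change in rat germ cells cultured on STO feeder cells was read by setting day 5 and day 10 of culture against day 1. Of the 18 arrays of the series, 6 hold these cultures, as each of the 3 days was put on 1 array of type A and 1 of type B. The cultures of days 1, 5 and 10 were all germ cells from the testes of 22-day-old rats, and they differed by the labels only in their time on STO, a mouse embryonic fibroblast line used as a feeder layer. The labels give no strain, culture medium or number of animals, and do not say whether feeder cells were removed before RNA was taken. The other 12 arrays hold germ cells on STO on day 20, on MSC1 feeders on day 20, laminin-binding and laminin non-binding germ cells, and 2 somatic fractions of the testis.

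Spermatogonia are the mitotic germ cells at the base of the seminiferous tubule, and the stem cells of the testis are among the undifferentiated ones. In rodents these cells are kept undifferentiated by GDNF, a growth factor from Sertoli and peritubular cells, which binds the co-receptor GFRA1 and signals through the receptor kinase RET. Differentiating spermatogonia leave this state, divide and enter meiosis, and a feeder layer is one way to keep the undifferentiated cells alive outside the testis.

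The unit is the scaled signal of a probe set, a group of short probes to 1 transcript, on a linear scale with each array scaled to an average of 250. A call on a given day needed a signal of 250 or more on that day or on day 1 and a 3-fold difference between them, with signals below a floor of 50 raised to 50. A probe set was called on both days where day 5 and day 10 passed in the same direction. Probe sets or genes said to pass 2-fold met the same rule, the 250 included, with 2-fold in place of 3-fold. Each day has 1 library per array type, so no p-value or replicate error can be given, and the number of arrays limits the precision. Both folds use the same day 1 arrays, so a high or low day 1 value moves both of them. In RNA from a whole culture, fewer cells of a type and less RNA per cell cannot be told apart.

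The repeat measurement available is that of 100 probe sets that both array types hold. For these the log2 fold of day 5 over day 1 differed between types with a standard deviation of 0.26 per type, and that of day 10 with 0.19, so that 2 standard deviations corresponded to 1.44-fold and 1.29-fold. This error covers the arrays and not the cultures, animals or amplification. The day 5 arrays stood apart in brightness, with scale factors of 0.510, 1.512 and 0.660 on days 1, 5 and 10 on type A and 1.546, 3.834 and 1.464 on type B. The floor of 50 therefore corresponded to unscaled signals of 98.0, 33.1 and 75.8 on type A and 32.3, 13.0 and 34.2 on type B. The 3' to 5' signal ratio of Gapdh, which grows as RNA is shortened, was 20.7, 20.6 and 29.7 on days 1, 5 and 10 on type A and 19.9, 18.8 and 26.4 on type B. That of actin set day 5 apart, at 71.2, 26.8 and 94.3 on type A and 59.8, 36.2 and 95.4 on type B, and the part of RNA quality in the folds was not tested.

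The libraries carried germ cell transcripts on each day. Tex15, needed for meiotic recombination, read 13775, 17497 and 12646 on days 1, 5 and 10, and Tdrd1, a piRNA pathway protein, read 9458, 9240 and 8467. Of the marker genes of other testis cells on the arrays, many lay at or above the floor of 50 and few reached 250. At or above the floor were 15, 18 and 16 of 24 Sertoli genes on days 1, 5 and 10. For Leydig genes these were 7, 10 and 7 of 16, and for macrophage and leukocyte genes 21, 21 and 17 of 31. Some defining markers lay under it. Sox9 of Sertoli cells read 2.7, 34.5 and 4.7, Cyp17a1 of Leydig cells 18.2, 35 and 6.5, and Ptprc, the pan-leukocyte gene, 1.2, 10.4 and 2.0. A signal of 250 was reached by 2 Sertoli genes on each day, by 3, 2 and 2 Leydig genes and by 2, 1 and 0 macrophage and leukocyte genes, and no Sertoli or Leydig gene passed 2-fold on day 5 or day 10. Of 41 matrix genes on the arrays 15, 10 and 9 reached 250. Col1a1 read 132.9, 133.0 and 107.3 and the intermediate filament gene Vim 1068.1, 494.4 and 957.8. A rat array cannot separate rat from mouse feeder RNA where probes match both.

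Few transcripts passed 3-fold on both days, and more of them were lower than higher. On day 5, 52 of 31042 probe sets were called higher (0.168%) and 64 lower (0.206%) than on day 1. On day 10, 44 were called higher (0.142%) and 142 lower (0.457%). On both days 5 were higher (0.0161%) and 13 lower (0.0419%), and no probe set was called in opposite directions. The 5 were 9.62% of the higher calls of day 5 and 11.4% of those of day 10. The 13 were 20.3% of the lower calls of day 5 and 9.15% of those of day 10.

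Most bright transcripts moved less than 2-fold. Among probe sets that reached 250 on either side, 91.9% of 9915 on day 5 and 92.2% of 9834 on day 10 lay within 2-fold of day 1. The median size of a fold was 1.29 on day 5 and 1.26 on day 10. On the log2 scale this was 0.36 and 0.33. The array error, 0.26 and 0.19, is a standard deviation over the 100 shared probe sets and leaves out cultures and amplification. The 2 measures are therefore not directly comparable. At a 2-fold threshold the calls were 344 higher (1.11%) and 456 lower (1.47%) on day 5, and 301 higher (0.970%) and 463 lower (1.49%) on day 10. On both days 57 were higher (0.184%) and 134 lower (0.432%). Of these, 39 and 87 have 1 gene and stand for 38 and 86 named genes, while 18 and 47 have no single gene. Of the 100 shared probe sets, 5 passed 2-fold on day 5 on only 1 of the array types and 2 on both types, while on day 10 1 passed on only 1 type. None of them passed 2-fold on both days.

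**Figure D1:**
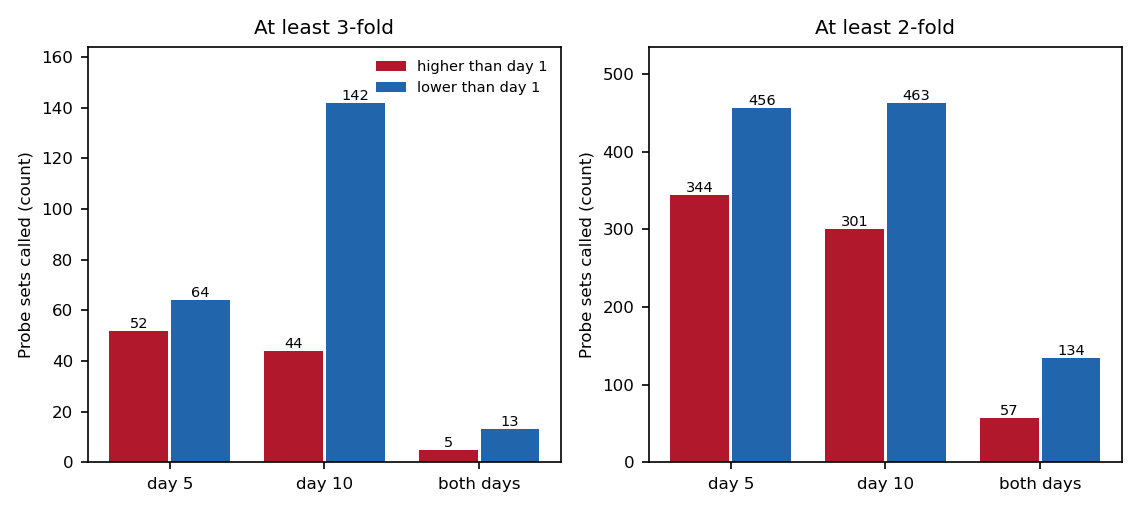
Bars give the number of probe sets called on day 5, on day 10 and on both days against day 1, at the 3-fold and at the 2-fold threshold, split by direction. On both days 5 and 13 probe sets passed 3-fold and 57 and 134 passed 2-fold, higher and lower in that order.

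The 3 named genes that were higher on both days are a vesicle protein gene, a leucine-rich repeat gene and a gene of RNA processing. Syngr1, synaptogyrin 1, a membrane protein of synaptic vesicles (chromosome 7, 113516246 to 113542918 in the GRCr8 assembly), read 228.7, 869.8 and 955.5 on days 1, 5 and 10. That is 3.80-fold higher on day 5 and 4.18-fold higher on day 10, and on day 20 the signal was 284.5, back near that of day 1. A weaker Syngr1 probe set, at 108.0, 42.1 and 48.2, did not move that way, so the change rests on 1 of its probe sets.

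Lrrc73, a leucine-rich repeat gene (chromosome 9, 22223735 to 22227867), read 138.0, 613.7 and 509.0 on days 1, 5 and 10, or 4.45-fold and 3.69-fold higher. On day 20 it read 94.3, below all 3 earlier days. Ints15, a subunit of the Integrator complex that cleaves small nuclear RNAs (chromosome 12, 16358644 to 16373763), read 133.2, 435.0 and 415.7, or 3.27-fold and 3.12-fold higher. All 3 genes thus had a day 1 signal under 250, and days 5 and 10 lay close to each other. The other 2 probe sets higher on both days have no single gene in the annotation, and read 159.0, 504.0 and 695.9 and, for the one with the larger change, 35.6, 349.2 and 288.7, higher by at least 6.98-fold on day 5 and 5.77-fold on day 10.

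On the lower side 4 named genes passed on both days, for a matrix protein, a member of the N-myc downstream-regulated family, a corepressor and a transcription factor. Fbn1, fibrillin-1, the main protein of matrix microfibrils (chromosome 3, 133007693 to 133204277), read 378.7, 98.4 and 73.6 on days 1, 5 and 10, or 3.85-fold and 5.15-fold lower. Its weaker probe set read 185.3, 164.7 and 88.7, under the 250 needed for a call. The interstitial fraction, which holds matrix-making cells, read 1992.5 for Fbn1, the highest of the 9 populations.

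Ndrg2, of the N-myc downstream-regulated family (chromosome 15, 27074481 to 27087376), was the brightest gene called on both days, at 2301.6, 602.1 and 453.0, or 3.82-fold and 5.08-fold lower. It was bright in laminin-binding cells (2991.6), in the interstitial fraction (3358.0) and in the tubular somatic fraction (1959.4), and read 217.9 in non-binding cells. Pou6f1, a POU-domain transcription factor (chromosome 7, 133556506 to 133580004), read 504.5, 167.8 and 116.5, or 3.01-fold and 4.33-fold lower. Another Pou6f1 probe set stayed under the floor on each day, at 7.3, 10.3 and 7.2, and a second Ndrg2 probe set was too dim for a call at 76.1, 69.1 and 48.7.

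Nab2 encodes a corepressor that binds EGR transcription factors and is itself induced by them in mammalian cells (chromosome 7, 65382863 to 65389527). It read 473.0, 133.5 and 116.8 on days 1, 5 and 10, or 3.54-fold and 4.05-fold lower, and 68.2 on day 20. Its second probe set, at 130.0, 97.6 and 92.0, was too dim for a call. The related corepressor gene Nab1, picked after its values were seen, read 2445.7, 945.4 and 614.8, which was 2.59-fold lower on day 5, under the threshold, and 3.98-fold lower on day 10. Egr1 itself read 1378.3, 1069.7 and 1131.5, 1.29-fold and 1.22-fold below day 1.

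The promoters of Nab1, Nab2 and Ret, whose signals were lower on both days, are shown because EGR factors are known to act on the genes of their own corepressors. Each holds 250 bases before and 50 after an annotated start of the gene in GRCr8, 5′ to 3′ on the strand of the gene. For Nab2 the whole window lies inside the gene span given above, not at its outer end. Capitals mark matches to the EGR motif GCGNGGGCG on either strand, chosen after values were seen, whose letters overlap those of GC boxes.
Nab1 (chr9:56545392-56545691, plus strand): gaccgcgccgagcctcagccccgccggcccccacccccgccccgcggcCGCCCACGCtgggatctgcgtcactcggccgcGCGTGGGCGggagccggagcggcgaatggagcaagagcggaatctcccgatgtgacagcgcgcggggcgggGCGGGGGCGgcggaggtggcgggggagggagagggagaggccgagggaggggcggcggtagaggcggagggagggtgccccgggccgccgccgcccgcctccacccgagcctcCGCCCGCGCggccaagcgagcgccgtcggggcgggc
Nab2 (chr7:65389206-65389505, minus strand): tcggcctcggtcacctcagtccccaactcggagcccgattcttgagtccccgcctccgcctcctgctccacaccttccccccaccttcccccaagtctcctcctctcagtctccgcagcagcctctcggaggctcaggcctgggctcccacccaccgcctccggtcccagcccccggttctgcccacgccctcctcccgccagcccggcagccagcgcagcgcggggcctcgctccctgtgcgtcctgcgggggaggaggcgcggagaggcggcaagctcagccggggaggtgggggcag
Ret (chr4:153040507-153040806, minus strand): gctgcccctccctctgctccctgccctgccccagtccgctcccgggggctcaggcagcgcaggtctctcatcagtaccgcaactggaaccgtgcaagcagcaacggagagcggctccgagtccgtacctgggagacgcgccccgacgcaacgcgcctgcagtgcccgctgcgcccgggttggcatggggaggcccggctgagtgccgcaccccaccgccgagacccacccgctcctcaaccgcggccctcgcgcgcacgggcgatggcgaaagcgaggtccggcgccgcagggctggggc

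The Nab1 promoter held 4 matches, of which 3 lie before the start and 1 after it. The promoters of the 10 other genes with an entry, Nab2 and Ret among them, held none in this window. For most of these 10 the window lay inside the listed span of the gene, so the outer end of the gene was not read. Among 33469 rat promoters of the same length 4.98% held at least 1. No match to the ETS motif CCGGAAGT, held by 3.81% of all promoters, or the CRE motif TGACGTCA, held by 1.83%, was found in the promoters of the 11 genes with an entry among 14 looked up. A match is a description of the letters only.

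The 9 lower probe sets with no single gene made up most of the 13 and were all on type B. The brightest read 1383.5, 302.6 and 354.6 on days 1, 5 and 10, and the next 981.7, 214.5 and 221.7. Their folds lay between 3.14 and 6.16 on day 5 and between 3.61 and 5.42 on day 10, with signals under the floor counted as 50. The threshold is close to several of these values. Just inside it by the smaller of the 2 folds lay Pou6f1 at 3.01 and Ints15 at 3.12, and just outside lay Snap91 at 2.97, Upp1 at 2.95 and, on the higher side, Zmym6 at 2.94.

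**Figure D2:**
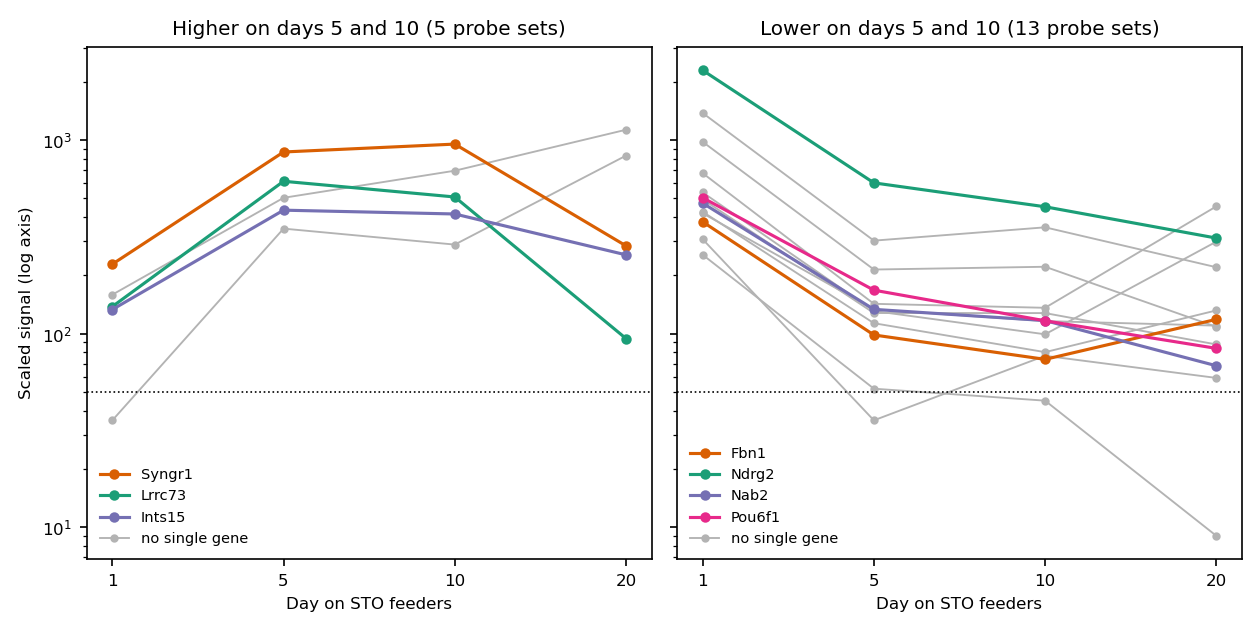
Each line is 1 of the 5 higher or 13 lower probe sets, with its scaled signal on a log axis on days 1, 5, 10 and 20, and grey lines have no single gene. Ndrg2 read 312.0 on day 20, against 2301.6 on day 1, and Syngr1 read 869.8 and 955.5 on days 5 and 10, against 228.7 on day 1.

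Day 20, which played no part in choosing these probe sets, did not continue the change in every case. Of the 13 lower probe sets, 8 were below both earlier days on day 20 and 4 above both. Of the 5 higher ones, 2 were above both and 3 below both. In the wider 2-fold group 81 of 134 lower probe sets were below both earlier days on day 20 and 39 above. There, 39 of 57 higher ones had dropped below both, and 14 were above. The same shares over all probe sets were not counted, so these counts do not set the called probe sets apart from the rest.

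The 12 genes with the largest 2-fold changes on both days in each direction were added after values were seen. On the higher side Mxra7, a matrix-remodelling-associated gene, read 603.6, 1692.7 and 2420.6 on days 1, 5 and 10. Its type A probe set read 284.2, 369.0 and 346.1, a much smaller change. Cadm1, an adhesion molecule that in mice joins germ cells to Sertoli cells, read 160.7, 419.3 and 730.1, or 2.61-fold and 4.54-fold higher. Its other probe set, which stands for it in the lists, read 282.3, 493.7 and 500.6, or 1.75-fold and 1.77-fold higher and no call. Vav2, a guanine nucleotide exchange factor, was called higher at 2-fold by 2 of its 4 probe sets, at 237.9, 673.8 and 539.1 and at 437.2, 1101.2 and 920.1. Of the others, one read 68.1, 129.5 and 97.3, too dim for a call, and one lay under the floor on each day.

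The transcription elongation factor gene Tcea3 read 483.9, 1384.7 and 1207.4, and on day 20 only 92.1. Bola2, of iron-sulphur cluster handling, read 340.2, 1177.3 and 827.8. The tubulin deacetylase gene Sirt2 read 215.1, 509.4 and 702.5, and the lamin A protease gene Zmpste24 117.8, 309.2 and 375.0. Zmym6 read 226.9, 667.4 and 740.3 by the probe set called, but 1931.9, 1102.2 and 2075.9 by a brighter one, and the type A probe set of Fam98a also did not move with its type B one.

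On the lower side, Cdkn1b, the cyclin-dependent kinase inhibitor p27, read 251.2, 66.5 and 86.8 on days 1, 5 and 10, or 3.78-fold and 2.89-fold lower. Cables1, which links cyclin-dependent kinases to tyrosine kinases, read 553.0, 192.4 and 80.8, and the kinase gene Cdk17 read 722.0, 273.3 and 139.5. Sgk3, a kinase downstream of phosphoinositide 3-kinase, read 1082.2, 406.9 and 195.2. For Cables1, Cdk17 and Sgk3 the folds were 2.87, 2.64 and 2.66 on day 5, and 6.84, 5.18 and 5.54 on day 10, all lower.

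Xpot, the nuclear export receptor for transfer RNA, read 377.5, 104.4 and 131.0. Sipa1l2, a GTPase-activating protein for Rap, read 601.3, 196.5 and 210.9 on type A, but 165.0, 194.9 and 262.1, in the other direction, on type B. Abca1, which exports cholesterol, read 3418.1, 1200.7 and 602.6, or 2.85-fold and 5.67-fold lower. Its signal in the interstitial fraction was 5799.7. The heat shock protein gene Hspa1a read 576.5, 217.1 and 131.3, and 602.1 on day 20.

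At the 2-fold threshold 3 probe sets were called in opposite directions on the 2 days. Zfp715, a zinc finger gene, read 170.5 on day 5 and 1272.1 on day 10, against 376.8 on day 1. Klhl24, an adaptor for ubiquitin ligases, read 1301.0 on day 5 and 291.0 on day 10, against 613.8 on day 1. The higher day 5 signal rests on 1 of its 3 probe sets, as the others read 80.4 and 180.5, against 229.0 on day 1, and 145.2 and 92.2, against 163.0 on day 1. The remaining one, with no single gene, read 995.1 on day 5 and 183.0 on day 10, against 384.8 on day 1.

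Among genes of undifferentiated spermatogonia, 3-fold calls were found on day 10 and not on day 5. Of 30 measured genes 4 were lower on day 10, and none was called on day 5 or higher on either day. Their median log2 fold was -0.05 on day 5 and -0.34 on day 10, beside 0.06 and 0.00 over all genes. Read once each, 13807 genes gave 17 higher (0.123%) and 32 lower calls (0.232%) on day 5, and 18 higher (0.13%) and 74 lower calls (0.536%) on day 10. At 2-fold 5 of the 30 were lower on both days, and none was higher. Over all genes 73 were lower (0.529%) and 29 higher (0.21%) on both days at 2-fold, with 1.01% higher and 1.66% lower on day 5 and 1.08% and 1.79% on day 10.

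Ret read 1729.5, 767.9 and 317.5 on days 1, 5 and 10, which was 2.25-fold lower on day 5 and 5.45-fold lower on day 10. A dimmer Ret probe set at 324.4, 108.5 and 123.9 was also lower on both days, by 2.99-fold and 2.62-fold. In the interstitial and tubular somatic fractions Ret read 1.5 and 1.9. Gfra1, the GDNF-binding co-receptor, read 328.4, 300.0 and 149.2, or 1.09-fold and 2.20-fold lower.

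Nanos3, an RNA-binding protein of early germ cells, read 326.3, 142.1 and 27.2, 2.30-fold lower on day 5 and at least 6.53-fold lower on day 10. Snap91, a clathrin assembly protein gene, read 491.7, 165.6 and 104.7, or 2.97-fold and 4.70-fold lower. Upp1, uridine phosphorylase 1, read 744.3, 252.7 and 93.7, or 2.95-fold and 7.94-fold lower. Pou3f1, a POU factor induced by GDNF in mouse germ cells, read 289.2, 126.7 and 124.8, or 2.28-fold and 2.32-fold lower. For Nanos3, Snap91, Upp1 and the brighter Ret probe set day 10 lay below day 5, which was not so for the dimmer one, and for Pou3f1 the signals of days 5 and 10 were alike.

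Other members of the list, read from their brightest probe set, passed no 2-fold call on both days. Etv4, an ETS factor downstream of FGF and GDNF, read 2715.5, 2598.4 and 2123.9. The adhesion gene Epcam read 768.1, 703.7 and 771.2, and Lin28a, which binds let-7 microRNA precursors, read 165.8, 296.5 and 321.3. Egr4, an EGR factor of spermatogonia, read 822.3, 722.0 and 322.2 and so was lower on day 10 alone. Bcl6b, a transcription factor induced by GDNF in mouse stem cells, differed by probe set. The brighter read 670.1, 787.6 and 368.2 and the dimmer 289.4, 124.8 and 136.6.

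**Figure D3:**
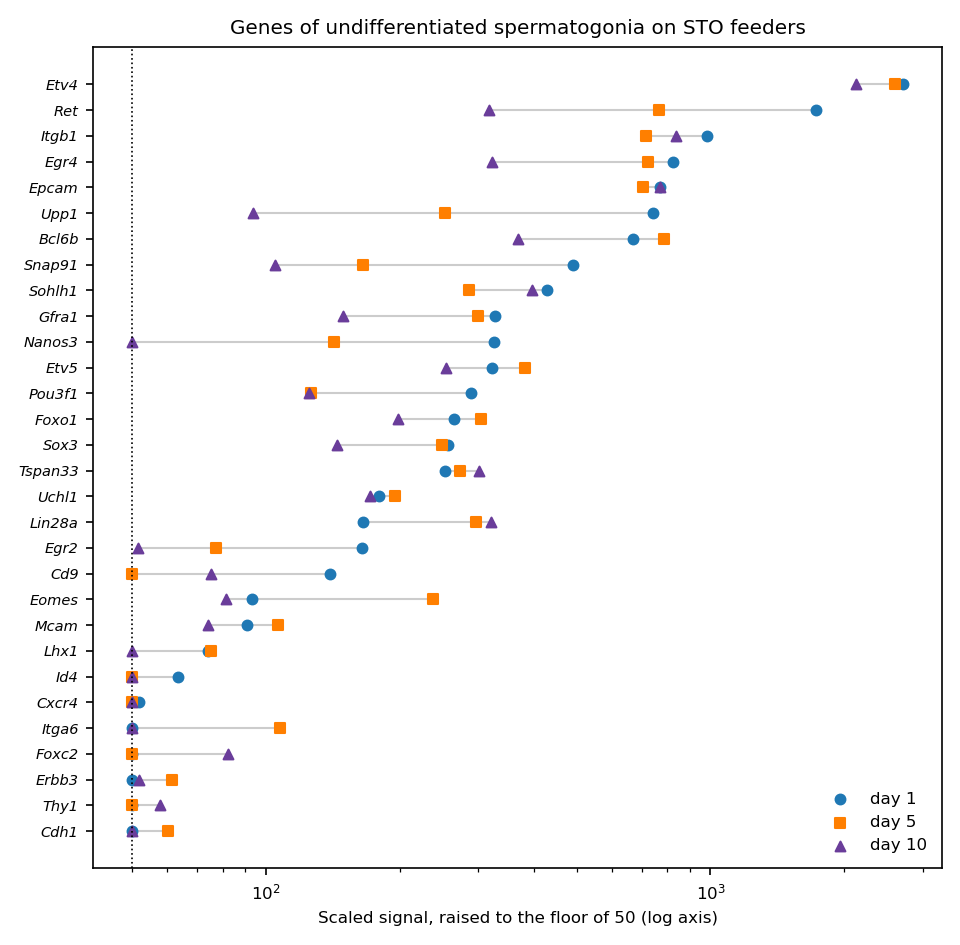
Points give the scaled signal, raised to the floor of 50, of genes of undifferentiated spermatogonia on days 1, 5 and 10, on a log axis. Ret, Upp1, Snap91 and Nanos3 spread out widely with day 10 lowest, whereas the 3 days of Etv4 and Epcam lie close together.

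The list of GDNF and FGF signalling shares members with this one. Of its 26 measured genes 2 were called lower on day 10 and none on day 5. Besides Ret this was Mycn, a transcription factor of growing progenitor cells, at 267.8, 105.5 and 51.0, or 2.54-fold and 5.25-fold lower. The feedback inhibitors Dusp6 (300.1, 236.9 and 110.4) and Spry4 (1710.0, 962.0 and 727.4) passed 2-fold on day 10 alone. The list median was -0.13 on day 5 and -0.35 on day 10.

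Differentiation and meiosis lists showed 1 call in all. Dmrtb1, which in mice acts at the switch from mitosis to meiosis, read 176.9, 313.5 and 708.0, or 1.77-fold and 4.0-fold higher, the only 3-fold call among 13 measured genes of differentiating spermatogonia. None of 9 measured meiotic prophase genes passed 2-fold on either day. Sycp3 of the synaptonemal complex read 721.7, 609.0 and 547.8, Sycp2 215.0, 254.9 and 332.7, and Spo11, which makes the breaks of meiotic recombination, 101.5, 179.0 and 62.0. Of 11 general germ cell genes none was called at 3-fold. The one called at 2-fold was Piwil2, a piRNA-binding protein, at 1747.4, 1154.1 and 746.7. Ddx25 was too dim for a call, at 175.6, 34.2 and 98.9. Pachytene and haploid genes passed no 2-fold call on either day.

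Cell cycle genes moved little. None of 52 measured genes was called at 3-fold, and 1 was called at 2-fold, namely Ccna2, cyclin A2, at 1563.1, 2832.3 and 3351.4. Chek1 was 2.14-fold higher on day 5, but too dim for a call at 108.6, 232.2 and 194.4. The proliferation marker Mki67 read 1320.5, 1348.5 and 1441.1 on days 1, 5 and 10, and Pcna, the sliding clamp of DNA replication, 2711.6, 2673.0 and 2943.1. The list median was 0.04 on day 5 and 0.12 on day 10.

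Called matrix genes were all lower, and most of the calls fell on day 5. Of 39 measured genes of fibroblasts and extracellular matrix, Fbn1 was lower on both days and 2 more on day 5, with none higher. Col5a2, a chain of fibrillar collagen V, read 2212.3, 356.6 and 955.5, 6.2-fold lower on day 5 and 2.32-fold on day 10. A dimmer Col5a2 probe set read 86.2, 44.1 and 68.9. Col1a2, of collagen I, read 302.2, 98.3 and 179.9, or 3.07-fold and 1.68-fold lower, and 103.0, 93.5 and 141.3 by a dimmer probe set. The summed signal of the list was 11915, 7225 and 8608 on days 1, 5 and 10, but the list median was alike on both days, at -0.28 on day 5 and -0.28 on day 10. Col5a2 read 1475.3 on day 20, so for that gene day 5 was the lowest of the 4 days. What part rat somatic or mouse feeder cells had in these values was not tested.

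Macrophage and leukocyte genes gave 2 calls among 23. Mrc1, the macrophage mannose receptor, read 360.9, 58.2 and 135.2, 6.2-fold lower on day 5 and 2.67-fold on day 10. Itgb2, the beta chain of leukocyte integrins, read 739.3, 362.1 and 194.0, or 2.04-fold and 3.81-fold lower. Cd68 stayed near the floor at 32.1, 61.6 and 44.6, and the summed signal of the list was 2999, 2617 and 2120. The list median was 0.25 on day 5 and -0.13 on day 10, so the lower sum of day 5 was not shared by the list as a whole. The part of these cells in the calls on both days was not tested. Without probe sets at least 3-fold brighter in a somatic fraction than in laminin-binding cells, 8 of the 13 lower and 5 of the 5 higher probe sets remained. The share of all probe sets left by this filter was not counted, so whether these are many or few cannot be said.

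In the list of interferon response genes, 3-fold calls were on day 10 alone. By probe sets outside the counts of this list, Irgm2 read 803.3, 362.5 and 113.9 and Parp9 534.4, 235.6 and 115.5. Both were lower on both days at 2-fold. Of 29 measured genes 2 were called lower on day 10 and 7 passed 2-fold there, while on day 5 none was lower at 2-fold and Isg20, an exonuclease gene, was higher (108.5, 254.1 and 150.6 on days 1, 5 and 10). Isg15, a ubiquitin-like antiviral protein, read 569.3, 363.9 and 136.5, and Igtp, an immunity-related GTPase, 435.7, 285.7 and 114.3, with 52.1, 66.0 and 47.2 by a dimmer probe set. Psmb8, of the immunoproteasome, read 843.1, 1450.1 and 407.8. The list median was 0.08 on day 5 and -0.35 on day 10.

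Metabolic lists had scattered calls. Scd2, a fatty acid desaturase, read 326.0, 128.3 and 96.9 by its type A probe set but 1768.2, 821.9 and 1725.6 on type B. Elovl6, a fatty acid elongase, read 756.8, 559.4 and 217.8 on type A and 957.8, 452.8 and 283.3 on type B, lower on day 10 by both. In glycolysis Ldha, lactate dehydrogenase A, read 471.1, 196.9 and 225.1, and Pdk1, which restrains pyruvate oxidation, 324.5, 135.2 and 116.4, each over 2-fold lower on both days, though a dimmer Pdk1 probe set read 100.2, 110.4 and 86.9. The complex I subunit gene Ndufa1 went the other way, at 2086.3, 5385.6 and 5054.1, or 2.58-fold and 2.42-fold higher, and the oxidative phosphorylation median was 0.32 on day 5 and 0.20 on day 10. No cholesterol synthesis, unfolded protein response or lysosome gene passed 2-fold.

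Of the remaining list genes, a few stood out on 1 day. The cofilin phosphatase gene Ssh1 read 2507.9, 1695.9 and 380.9, or 6.58-fold lower on day 10, and its second probe set followed it at 1420.1, 942.9 and 223.0. Nqo1, an oxidative stress response gene, read 391.6, 111.9 and 160.1, 3.50-fold lower on day 5. Suz12, of Polycomb complex 2, read 544.9, 137.9 and 644.4, so its 3.95-fold drop was seen on day 5 alone. Aldh1a2, which makes retinoic acid, read 446.9, 214.0 and 132.6, or 2.09-fold and 3.37-fold lower. Over all 860 list genes, none was higher and 1 was lower on both days at 3-fold, beside 3 and 3 of all genes (0.0217% each).

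**Figure D4:**
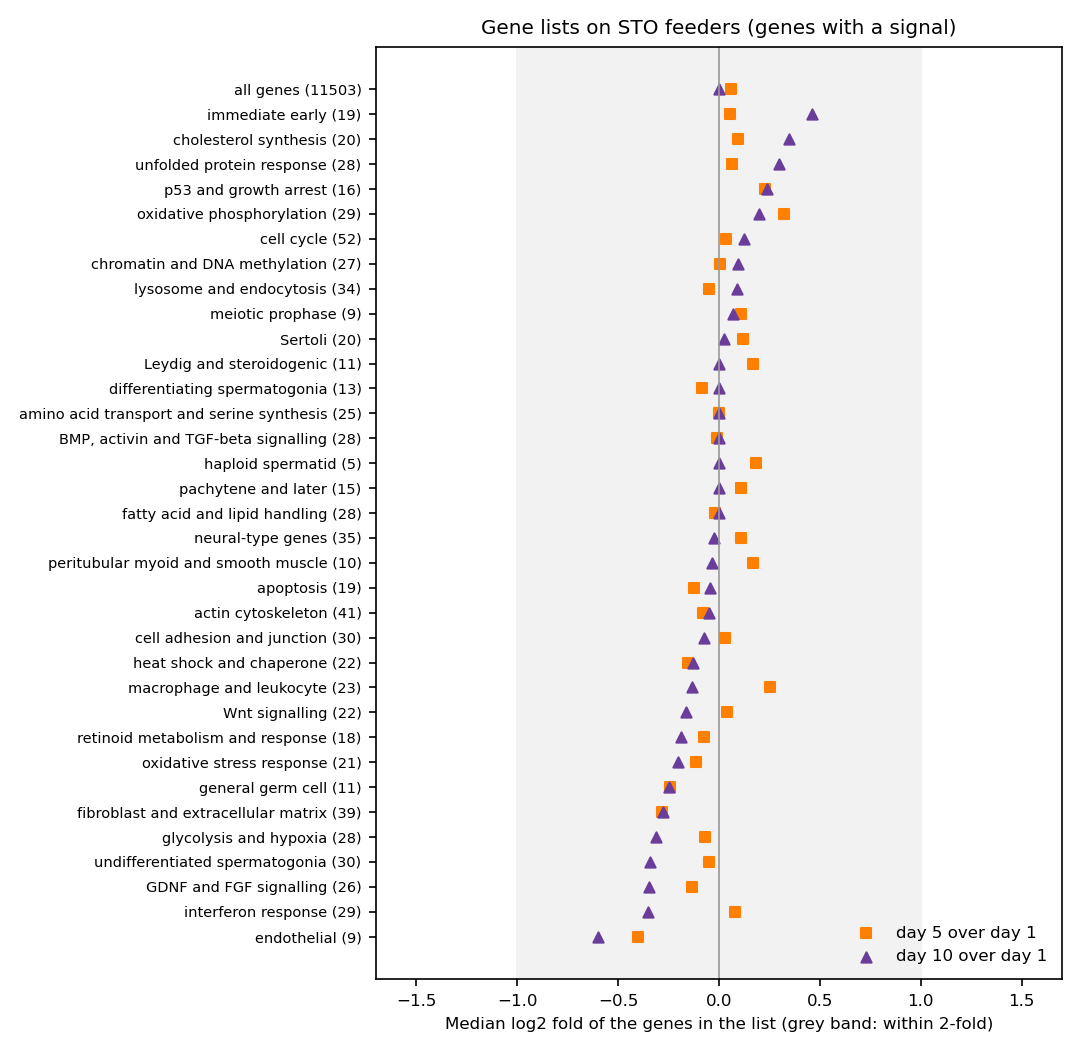
Points give the median log2 fold of each gene list with at least 5 measured genes, on day 5 and on day 10 against day 1, with the number of genes in brackets and a grey band for changes within 2-fold. All of the medians lie inside the band, with undifferentiated spermatogonia at -0.05 and -0.34 and cell cycle at 0.04 and 0.12.

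In the libraries that took no part in the rule, the signals spread widely. The rule itself picks lower probe sets for a day 1 signal well above the later days, and higher ones for the reverse. Their day 1 medians are therefore set in part by this choice. Medians over all probe sets were not taken for the other libraries, so no difference between populations is drawn from the contrast with day 1. The 13 lower probe sets had a median signal of 494.9 on day 1, against 236.1 in laminin-binding and 89.4 in non-binding cells, and 329.7 and 169.9 in the interstitial and tubular somatic fractions. The 5 higher ones had a median of 138.0 on day 1, against 335.6 in laminin-binding and 271.9 in non-binding cells, and 89.9 and 37.5 in these somatic fractions. On MSC1 feeders on day 20 the medians were 212.8 for the lower and 354.1 for the higher probe sets. Lrrc73 read 432.8 in laminin-binding and 934.0 in non-binding cells, against 24.9 and 20.6 in the somatic fractions.

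**Figure D5:**
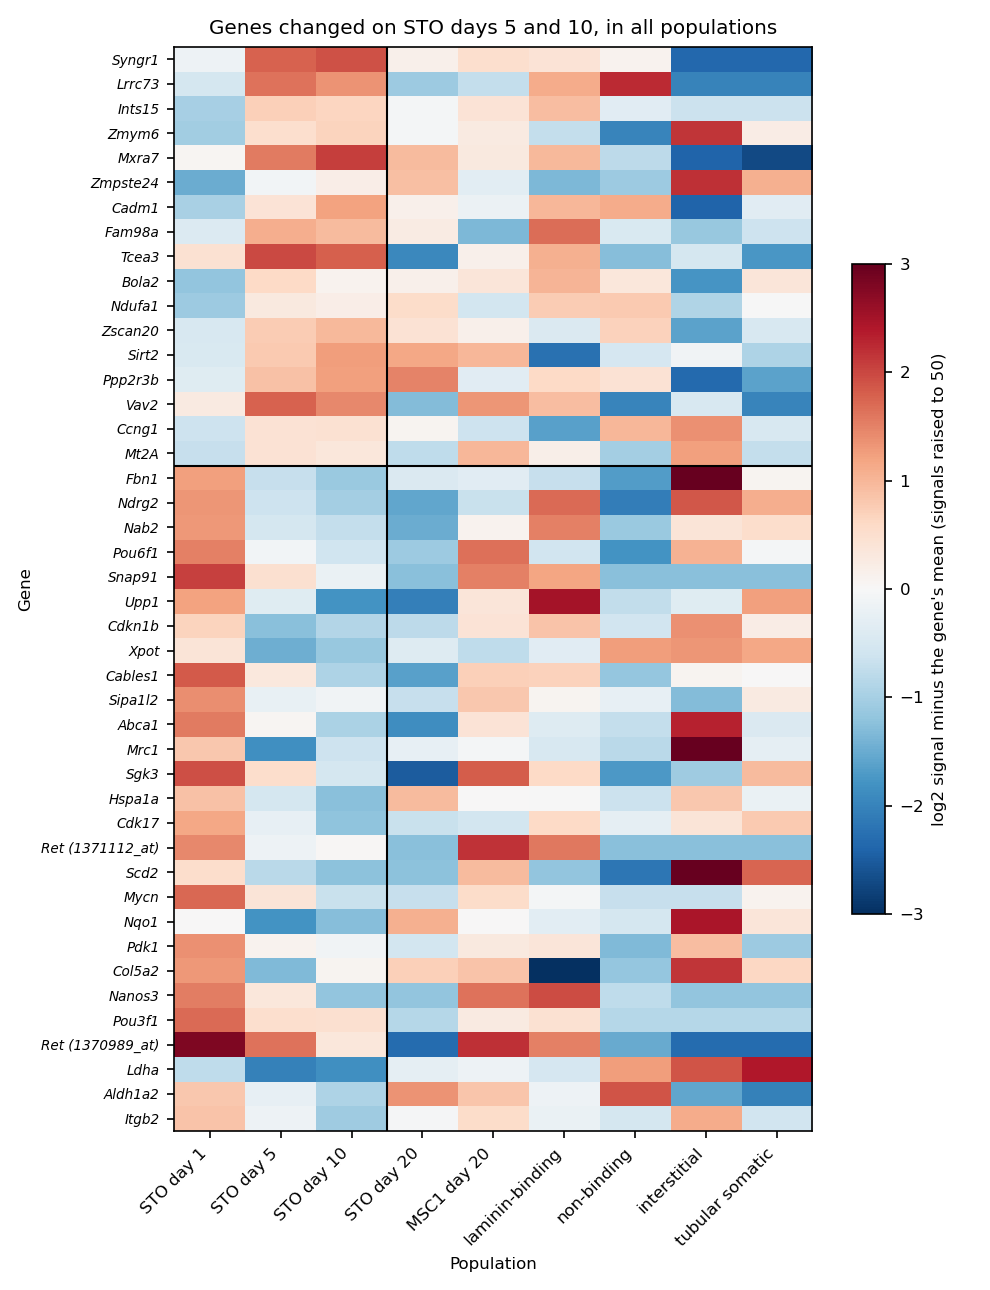
Colours give each gene's log2 signal minus its own mean over the 9 populations, clipped at 3 either way, for 44 probe sets of named genes, 17 of them higher and 27 lower on days 5 and 10. Fbn1 and Mrc1 are brightest in the interstitial fraction, and Ret, Snap91 and Nanos3 are dim in both somatic fractions.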

How the data were processed

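The RNA (50 ng per sample) was amplified in 2 rounds per the labels. The authors deposited linear probe set intensities, with every array brought to an average of 250. Detection calls, made with a Tau of 0.015 per the labels, were not used here. Which software and background correction they used is not given in these sources. After 57 controls per type were dropped (from 15923 and 15333 probe sets for A and B) and 100 shared ones were counted once, 31042 remained, of which 20253 have 1 gene. Names come from the platform annotation, updated through gene identifiers, with positions and promoters from RefSeq (GRCr8).

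Signals were raised to 50, taken to log2 and compared within an array type with Python 3.11.15, numpy 2.4.6 and pandas 2.3.3, and the calling was tested on simulated data. Each of 13807 genes was represented by its brightest probe set, on type A where possible, and counted as measured where a day was above the floor. The 35 gene lists hold 860 genes, 45 of them in several lists. The comparisons and lists were chosen with earlier results of these data known. Named genes are the 15 with the largest smaller fold per direction among probe sets called on both days, list genes called on both days, Ret, Gfra1 and spermatogonial, meiotic, matrix and macrophage genes called on 1 day, up to 4 more members per list, and opposite calls. Genes from the 2-fold group, Nab1 and the motifs were chosen after values were seen.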

Additional observations from a re-analysis of the deposited data

How the results depend on the processing

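With a floor of 25, a floor at each array's 35th percentile, or scaling to a common 75th percentile, 5 probe sets were higher and 13 lower on both days, as in the main setting. Floors this low cannot change a 3-fold call with a bright side of 250, by construction. A floor of 100 gave 4 and 12, and quantile normalization 5 and 14, with 2 list genes called higher on day 10 and 2 lower on both days. With no minimum on the brighter side 23 were higher and 33 lower on both days, 162 and 165 on day 5 and 84 and 242 on day 10, and of the list genes 1 was higher on both days, 3 were higher on day 5, 3 on day 10 and 11 lower on day 5. With a brighter side of at least 500 the counts were 3 and 6 on both days, 12 and 28 on day 5 and 24 and 69 on day 10, and of the list genes 0 were lower on both days, 2 on day 5 and 8 on day 10. That setting ended the calls of Ints15, Fbn1 and Nab2, while Syngr1, Lrrc73, Ndrg2 and Pou6f1 kept theirs in all 9 settings run on single genes. Besides the low floors, several of these could not end a 3-fold call by construction. They are the 2-fold rule, no minimum on the brighter side and the gene's own array type alone. At 2-fold the counts were 57 and 134 on both days, 344 and 456 on day 5 and 301 and 463 on day 10, and of the list genes 3 were higher and 18 lower on both days, 7 and 32 on day 5 and 8 and 40 on day 10.

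Type A alone gave 3 and 3 on both days, 13 and 22 on day 5 and 13 and 51 on day 10, with 0 list genes higher and 10 lower on day 10. Type B alone gave 2 higher and 10 lower on both days, 42 lower on day 5 and 91 on day 10, and of the list genes 0 lower on both days, 1 on day 5 and 6 on day 10, since each type holds part of the probe sets. Averaging all probe sets of a gene, 0 list genes were lower on both days and 4 on day 5. The mean of days 5 and 10 in place of each day gave 12 and 53. Without probe sets brighter in a somatic fraction, an alternative added after seeing the data, 8 were lower on both days. The share of all probe sets that it leaves was not counted. No paired analysis was possible because each day has 1 library per array type and the labels give no replicate numbers. No probe set of a named gene that was called in the main setting changed direction under the settings run on single genes. The array error was 0.25 for day 5 and 0.18 for day 10 over the 95 shared probe sets with a mean of at least 100.

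The limits are those of single libraries. Culture, animal and amplification spread were not measured, the dimmer day 5 arrays were scaled up most, and 10789 of 31042 probe sets have no single gene. Where a gene's probe sets disagree, as for Syngr1, Zmym6 and Scd2, the change rests on 1 of them.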
